A study of Mus musculus with 47 samples.

Results

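The 10 genes described here encode transcription factors, and 1 transcriptional coactivator, that mark neurons of the mediobasal and neighbouring hypothalamus: Nkx2-1, Six6, Otp, Sim1, Hmx2, Hmx3, Isl1, Tbx3, Bsx and Cited1. They were chosen by name for that role, with no value in the rule but with earlier results of these data known. All 10 are among the 14221 genes of the table of raw counts. The counts come from bulk RNA sequencing of dissected hypothalamus from 47 male Lep ob/ob mice, a leptin-deficient and obese strain. All mice carried the ob/ob genotype and were labelled 11 weeks old, so no lean or leptin-replete group is present. Each mouse received 1 injection into the lateral ventricle of the brain (icv), either 3 µg of recombinant human fibroblast growth factor 1 (FGF1) or phosphate-buffered saline as vehicle, and the vehicle-treated mice were pair fed to those given FGF1.

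On Day 1 after the injection there were 10 FGF1-treated mice and 4 vehicle-treated mice labelled non-diabetic. On Day 5 there were 9 FGF1-treated mice, 7 vehicle-treated mice labelled non-diabetic and 7 labelled diabetic, and on Day 42 there were 5 FGF1-treated mice and 5 vehicle-treated mice labelled non-diabetic. The study's methods leave out mice whose blood glucose stayed under a set level and describe a single vehicle group on Day 5, so the labels' split into non-diabetic and diabetic vehicle mice is not explained by the sources used here. Each library was from 1 mouse. The libraries of each day carried 1 preparation code of their own, so day and preparation cannot be told apart. Library totals ran from 1243280 to 47082403 counts. The shallowest library, FGF1 Day 1 replicate 17, held 0 counts of Hmx2 and of Hmx3, and every other member was counted in every library.

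Hypothalamic nuclei are laid out by combinations of such factors, many of which remain active in adult neurons and keep up the expression of peptide genes. Nkx2-1 is needed for the ventral hypothalamus to form and Six6 acts in the hypothalamus, pituitary and retina. Otp and Sim1 specify the neuroendocrine neurons of the paraventricular nucleus. In the arcuate nucleus, the linked genes Hmx2 and Hmx3 are required for growth hormone-releasing hormone neurons, Isl1 and Tbx3 for the identity of neurons that express pro-opiomelanocortin (Pomc), and Bsx drives agouti-related peptide and neuropeptide Y in the feeding-promoting neurons beside them. Cited1 does not bind DNA itself but joins the coactivator CBP to DNA-bound factors.

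Over all comparisons of FGF1 with vehicle, 1 of the 10 genes passed the test: Cited1 was 1.77-fold higher on Day 1. The share of all genes called was 19.5% on Day 1, 1.54% and 2.85% on Day 5 against the non-diabetic and diabetic vehicle mice, and 0% on Day 42. On Day 5 Tbx3 was higher in 8 of the 9 FGF1-treated mice than in all 7 non-diabetic vehicle mice but missed the threshold, and against the diabetic vehicle mice its interval included 0. On Day 42 none passed. The FGF1 effect on Cited1 itself differed between Day 42 and Day 1. A gene was called changed when its log2 fold change (log2 FC) exceeded 0.5 in either direction and its Benjamini-Hochberg adjusted p, from edgeR's quasi-likelihood test over all 14221 genes, was under 0.05. Levels are given as CPM, the counts of a gene per 1000000 counts of its library, with library totals scaled by the trimmed mean of M-values (TMM). In bulk tissue, fewer cells of a type and less RNA per cell cannot be told apart.

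**Figure D1:**
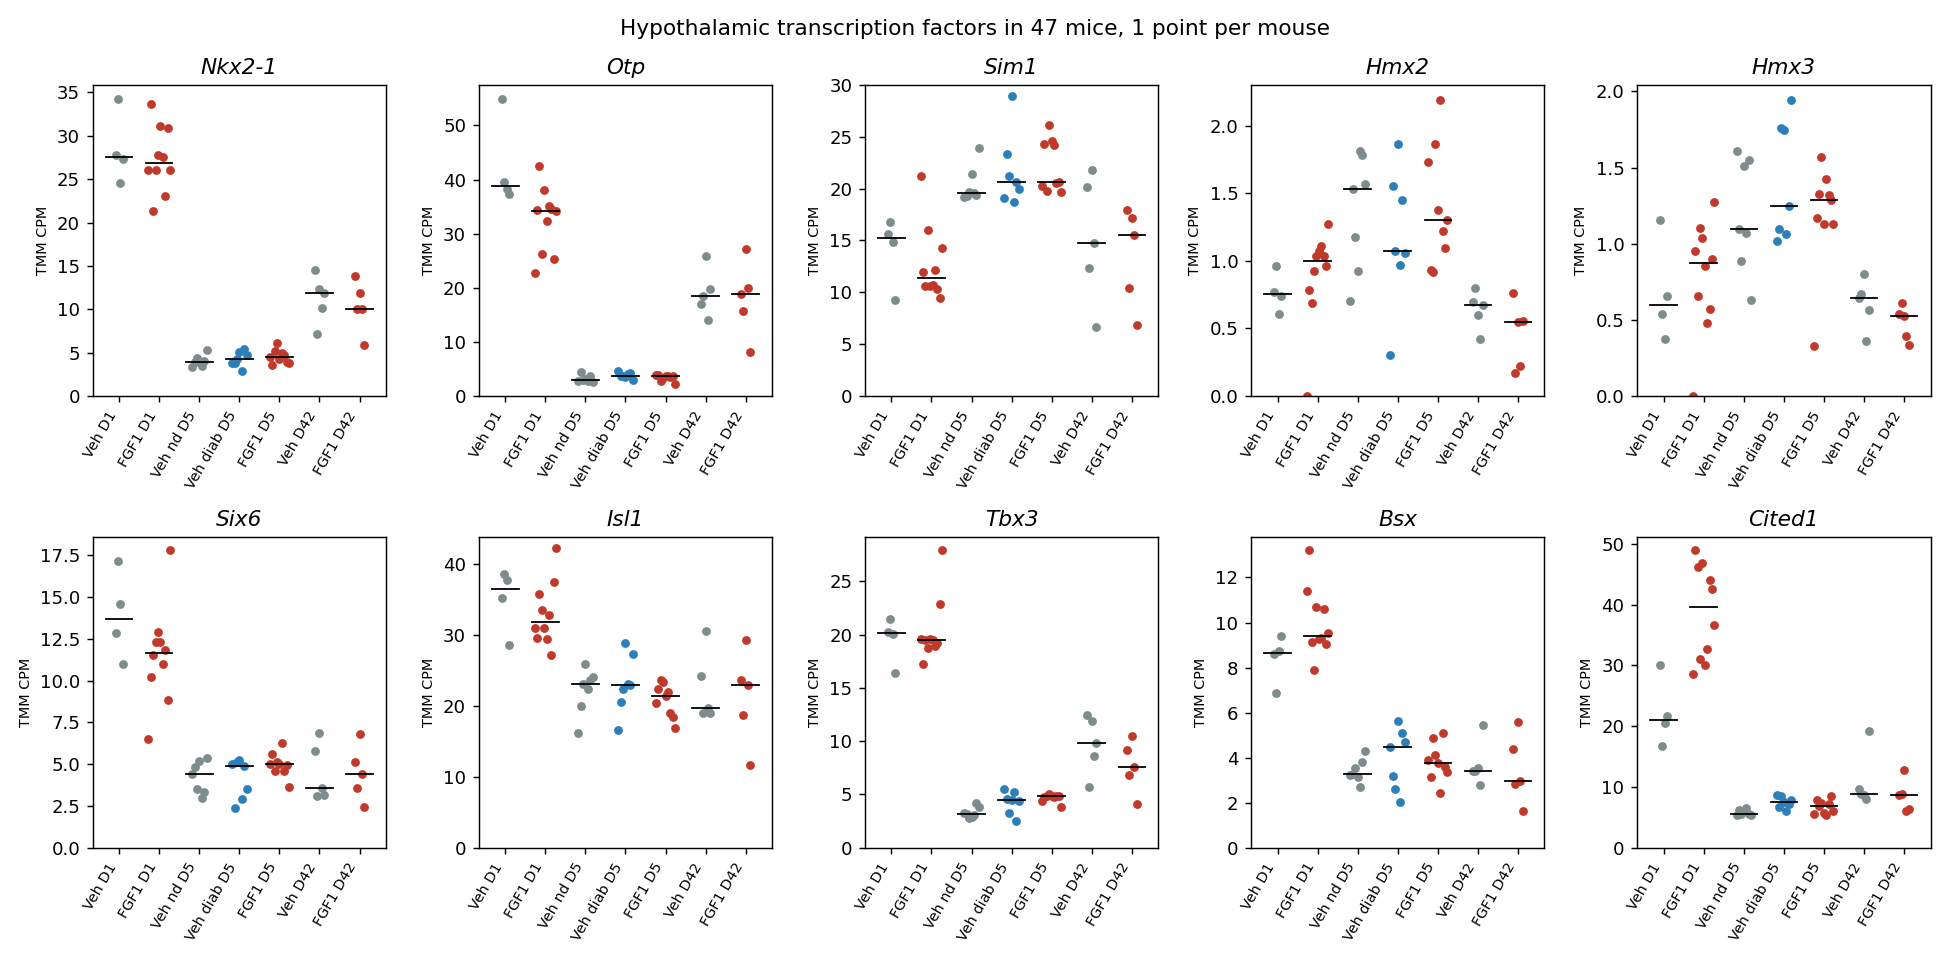
CPM of each of the 10 genes (vertical axes, 1 panel a gene) in every mouse, by treatment and day (horizontal axes). Points are mice, coloured grey for non-diabetic vehicle, blue for diabetic vehicle and red for FGF1, and black lines are group medians. The FGF1-treated mice of Day 1 lie at 28.5 to 49.0 CPM of Cited1 and the vehicle-treated mice of that day at 16.7 to 30.003.

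Cited1 lies on chromosome X (GRCm38 chrX:102247381-102252181, minus strand). The 250 bases upstream of its RefSeq start (GRCm38.p6 chrX:102252182-102252431, minus strand, RefSeq sequence) are shown because Cited1 is the member that passed the test. Capitals mark the TATAAA that begins at position -13, counted from the start, and the CCGCCC that begins at -93, whose reverse complement is the GC box GGGCGG.
Cited1 upstream: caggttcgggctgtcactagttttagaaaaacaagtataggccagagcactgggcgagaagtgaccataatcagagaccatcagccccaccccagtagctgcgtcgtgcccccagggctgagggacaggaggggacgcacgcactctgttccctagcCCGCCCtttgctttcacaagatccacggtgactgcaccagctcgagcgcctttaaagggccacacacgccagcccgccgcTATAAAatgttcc
TATAAA was found on either strand in 13.6% of 32851 RefSeq promoter windows of 300 bases, from 250 bases before to 50 after a start, and GGGCGG in 35.7%. The CCAAT box (37.4% of windows) and the palindromic site TGACGTCA (1.79%) were not found in the Cited1 window. Windows were present for 9 of the 10 genes, all but Tbx3. TATAAA was found in those of Sim1, Hmx2 and Cited1, and none of the 9 held TGACGTCA. The share of G and C was 59.7% for Cited1 against a highest value of 78.0% for Hmx3.

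On Day 1 the question was which of these factors responded within a day of icv FGF1. Cited1 stood at 30.003, 16.7, 20.5 and 21.7 CPM in the 4 vehicle-treated mice. In the 10 FGF1-treated mice its lowest, median and highest levels were 28.5, 39.6 and 49.0 CPM. Of the FGF1-treated mice, 9 lay above every vehicle-treated mouse, and the other overlapped with the highest vehicle mouse. The log2 FC was 0.82 ± 0.17 (SE, 95% interval 0.47 to 1.17; edgeR adjusted p = 0.00014). The two-sided exact permutation test over the 14 mice gave p = 0.002, where the smallest value that the design allows is 0.000999.

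The members' 1 call of 10 stands beside 19.5% of all genes called in that comparison, so as a set they were called no more often than genes in general. Their median log2 FC was 0.00 (5 above 0 and 5 below) and that of all genes was 0.01. Otp, which specifies paraventricular and arcuate neuroendocrine neurons, came next. It stood at 54.9, 39.5, 38.3 and 37.3 CPM in the vehicle-treated mice and at 22.8, 34.3 and 42.4 CPM (lowest, median, highest) in the FGF1-treated mice. Of these, 8 lay below every vehicle-treated mouse. Its log2 FC of -0.36 ± 0.16 (SE; 95% interval -0.68 to -0.04) had an edgeR adjusted p of 0.0576 and fell short of both thresholds. By unadjusted edgeR p, Otp ranked 6594 among the 14221 genes. In that comparison 51.6% of all genes had an unadjusted p under 0.05. Without the vehicle mouse at 54.9 CPM the Otp value was -0.21 (edgeR adjusted p = 0.329).

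None of the other 8 genes passed on Day 1. The patterning factors Nkx2-1 and Six6 had log2 FCs of -0.05 and -0.23, and the paraventricular factor Sim1 -0.23. Of the arcuate factors, Isl1 stood at -0.08, Tbx3 at 0.06 and Bsx at 0.24, where 5 of the 10 mice given FGF1 exceeded the highest vehicle level of Bsx (two-sided exact permutation p = 0.0649). Hmx2 and Hmx3 gave 0.36 and 0.35, with intervals from -0.15 to 0.87 and from -0.17 to 0.87. Levels of both lay near 1 CPM, in vehicle mice at 26 to 34 and 16 to 42 counts a library, and without vehicle replicate 27 Hmx3 passed the test at 0.73 (edgeR adjusted p = 0.035). Six6 shares 192 bases with a gene on the other strand, 4930447C04Rik, and the strand setting of the counting is not given in the sources used here. The same holds for Tbx3, which shares 115 bases with the antisense gene Tbx3os1.

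**Figure D2:**
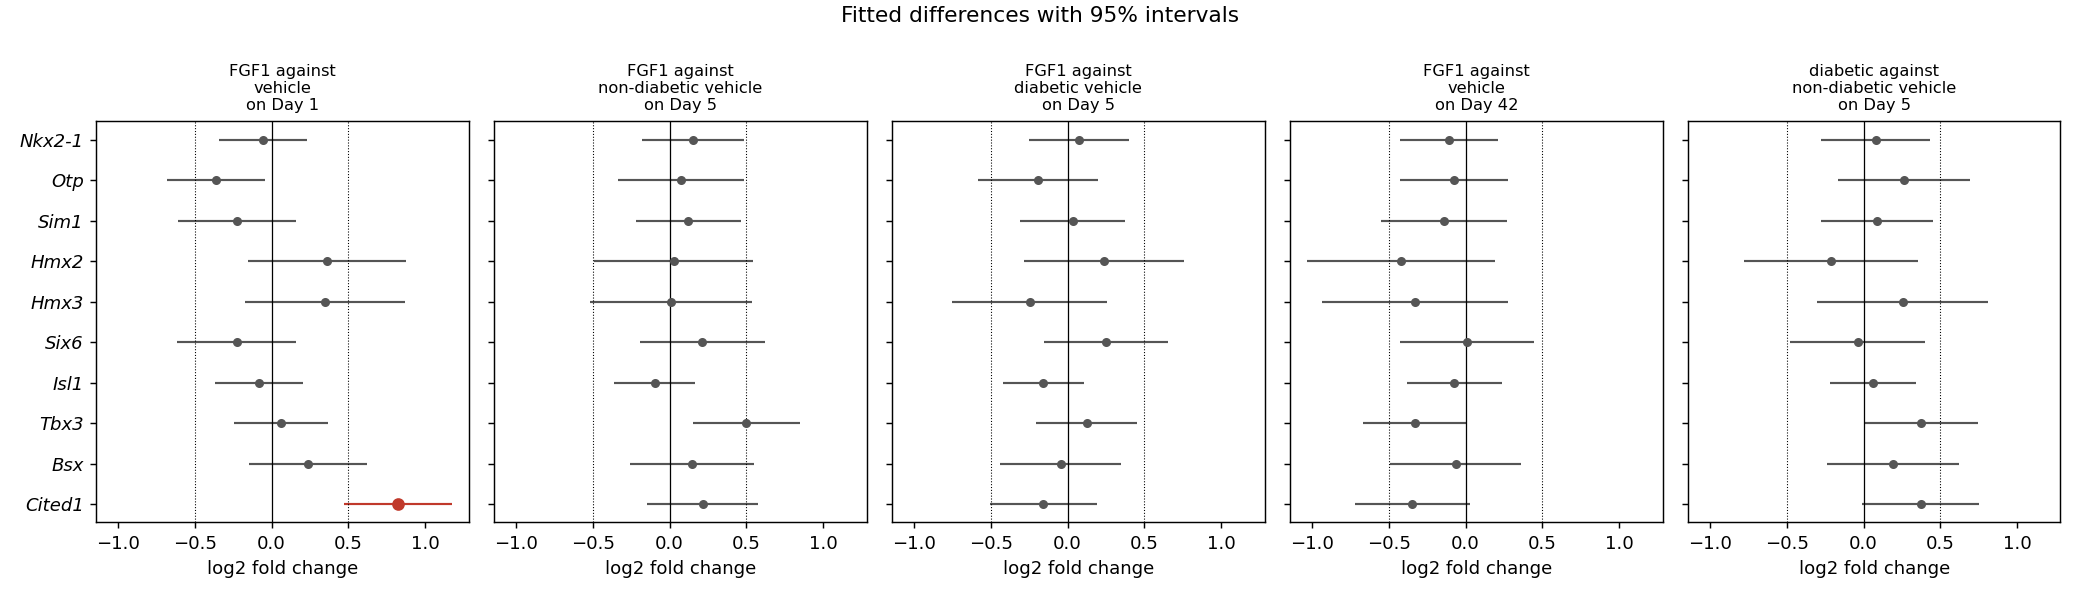
Log2 FC (horizontal axis) of each of the 10 genes in the 5 comparisons within a day, with 95% intervals from edgeR as bars. Dotted lines stand at -0.5 and 0.5, and the red point is the only call, Cited1 on Day 1 at 0.82.

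Among 48 further hypothalamic factors, 39 were in the table. On Day 1, 2 of them were called higher and 4 lower, beside 11.5% and 8.05% of all genes. Vax1 (0.68) and Dlx5 (0.65), homeobox genes of the anterior and GABAergic forebrain, rose, and among those that fell were Lmx1a (-1.14), Nr5a1 (-0.57) and Foxp2 (-0.54), all in log2 FC. Lmx1a is a factor of the posterior hypothalamus and subthalamic region and Nr5a1 marks the ventromedial nucleus. The median of the 39 was -0.16. Lmx1a stood at a median of 2.69 CPM in FGF1-treated mice (range 1.15 to 4.99) and 6.05 CPM in vehicle-treated mice (3.46 to 8.23).

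Of 16 peptide and transmitter genes that these neurons use, 15 were in the table. On Day 1 Pomc rose, with a log2 FC of 1.71 and levels of 9.66 to 38.1 CPM after FGF1 against 4.26 to 7.88 after vehicle, and the groups did not overlap. The neuropeptide galanin (Gal) rose by 0.78, from a median of 23.3 to 40.6 CPM. Npy, which encodes neuropeptide Y, was called lower (-0.61), although the FGF1-treated mice (80.8 to 151 CPM) and the vehicle-treated mice (81.7 to 235 CPM) overlapped. In these same libraries Isl1, Tbx3 and Bsx, the arcuate factors of the Pomc and Npy neurons, did not pass.

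Markers of other cells moved on the same day. Of 14 pan-neuronal markers 0 were called (edgeR; median log2 FC -0.14), yet their summed level was 6176 to 7380 CPM in FGF1-treated mice and 7458 to 8604 CPM in vehicle-treated mice, without overlap. Of 8 oligodendrocyte markers 7 were called lower, with sums of 2276 to 4161 CPM against 3633 to 5303 CPM. Of 8 microglial markers 6 were called higher and 1 lower, with sums of 261 to 354 CPM against 221 to 256 CPM. Of 11 tanycyte markers 1 was called higher and 2 lower, and of 5 ependymal markers 3 were called lower, with sums of 32.7 to 57.3 CPM against 60.7 to 84.5 CPM. Astrocyte markers split, with 2 of 10 higher and 3 lower, 2 of 6 endothelial markers were higher, and 2 of 3 choroid plexus markers were lower. No gene of these lists was at 0 throughout a group, and their part in the Cited1 and Otp values was not tested.

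On Day 5 the FGF1-treated mice were set against each of the vehicle groups, so that both comparisons share the same 9 FGF1-treated mice. None of the 10 genes was called against the non-diabetic vehicle mice (background 1.54% of all genes) or against the diabetic vehicle mice (2.85%), both by edgeR. At an unadjusted p under 0.05 the counts were 1 and 0, beside 16.5% and 21.8% of all genes. Tbx3, a T-box repressor of arcuate neurons, stood out. Its lowest, median and highest levels were 3.81, 4.83 and 5.01 CPM after FGF1, 2.75, 3.18 and 4.17 CPM in non-diabetic vehicle mice, and 2.49, 4.48 and 5.49 CPM in diabetic vehicle mice. Against the non-diabetic mice 8 of 9 FGF1-treated mice lay above all 7, whereas the diabetic vehicle mice spanned the whole FGF1 range.

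The Tbx3 log2 FC was 0.50 ± 0.17 (SE; 95% interval 0.15 to 0.85) against non-diabetic vehicle, with an edgeR adjusted p of 0.0894. The unadjusted two-sided exact permutation p over the 16 mice was 0.000175, where the smallest possible is 8.74e-05. When the Day 5 libraries were fitted alone the adjusted p was 0.00703 at a log2 FC of 0.50, and the gene was then called. Against diabetic vehicle the log2 FC was 0.12 ± 0.16 (95% interval -0.21 to 0.45; edgeR adjusted p = 0.736).

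Cited1 no longer stood apart on Day 5. It ran at 5.38, 6.83 and 8.50 CPM (lowest, median, highest) after FGF1, at 5.43, 5.60 and 6.52 CPM in non-diabetic vehicle mice, and at 6.10, 7.47 and 8.74 CPM in diabetic vehicle mice. The FGF1 group thus lay between the vehicle groups, at a log2 FC of 0.21 ± 0.18 against the non-diabetic and -0.16 ± 0.17 against the diabetic mice (SE, edgeR adjusted p = 0.638 and 0.668). For the other 8 genes the log2 FC ran from -0.10 (Isl1) to 0.21 (Six6) against non-diabetic vehicle and from -0.24 (Hmx3) to 0.25 (Six6) against diabetic vehicle. In all, 9 of the 10 genes were above 0 against the non-diabetic mice (median 0.13, all genes -0.01) and 5 of 10 against the diabetic mice (median -0.01, all genes -0.01).

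The diabetic and non-diabetic vehicle groups of Day 5 were also set against each other. None of the 10 genes was called, nor was any gene of the table (0%, edgeR), and at an unadjusted p under 0.05 the counts were 1 of the 10 (Tbx3) and 193 of all 14221 genes (1.36%). Cited1 was higher in 6 of the 7 diabetic mice than in all 7 non-diabetic mice, with a log2 FC of 0.37 ± 0.19 (SE; 95% interval -0.01 to 0.75; edgeR adjusted p = 1.00), while its unadjusted two-sided exact permutation p was 0.00233. Tbx3 had a log2 FC of 0.37 ± 0.18 and Otp 0.26 ± 0.21, and the groups overlapped for both genes.

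Of the 39 further factors, 1 was called on Day 5 and it was called against each vehicle group. This was Nkx2-2, a homeobox gene of the ventral neural tube that also acts in oligodendrocyte precursors. Its median level was 9.77 CPM after FGF1 (range 7.85 to 11.8), 6.03 CPM in non-diabetic vehicle mice (4.71 to 8.75) and 6.34 CPM in diabetic vehicle mice (5.22 to 8.95). The log2 FC was 0.62 against the former and 0.55 against the latter (edgeR adjusted p = 0.0105 and 0.0169). On the same day the oligodendrocyte markers summed to 6117 to 7013 CPM after FGF1 and to 4512 to 5974 CPM in non-diabetic vehicle mice, without overlap, whereas the diabetic vehicle mice, at 4092 to 6125 CPM, overlapped with the FGF1-treated mice. Of the 8 markers 2 were called higher against each vehicle group, Cnp among them. Microglial markers summed to 318 to 391 CPM after FGF1, to 247 to 412 CPM in non-diabetic (247 to 267 CPM without replicate 2, then below every FGF1-treated mouse) and to 225 to 259 CPM in diabetic vehicle mice, with 1 of 8 called higher against the former and 7 against the latter. Of 10 astrocyte markers, Gfap and Aqp4 were called higher against each group, with sums of 5883 to 6422 CPM against 5146 to 5385 and 5041 to 5610 CPM. Of 11 tanycyte markers Gpr50 was called higher against each group and Dio2 lower against diabetic vehicle, with sums of 182 to 248 CPM against 174 to 221 and 172 to 217 CPM, and of 5 ependymal markers Dynlrb2 was called higher against diabetic vehicle. The part of these lists in the Tbx3 and Nkx2-2 values was not tested. Of the 15 peptide genes and the 14 pan-neuronal markers 0 were called in either comparison (edgeR).

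On Day 42, the last day sampled, 0 of the 10 genes were called, as was true of every gene in the table (0%, edgeR). At an unadjusted p under 0.05 there were 0 of the 10 and 776 of all 14221 genes (5.46%). Cited1 stood at 8.75, 8.80, 12.7, 5.96 and 6.39 CPM in FGF1 replicates 7 to 11 and at 9.72, 8.85, 8.62, 8.07 and 19.2 CPM in vehicle replicates 12 to 16. Tbx3 stood at 9.20, 6.81, 10.5, 7.61 and 4.11 CPM after FGF1 and at 12.5, 5.71, 11.9, 8.60 and 9.82 CPM after vehicle. The groups overlapped for both genes. The lowest log2 FCs were those of Hmx2 (-0.42 ± 0.30), Cited1 (-0.35 ± 0.19), Hmx3 (-0.33 ± 0.30) and Tbx3 (-0.33 ± 0.17, SE), with edgeR adjusted p-values of 1.00, 0.978, 1.00 and 0.923. With 1 library of Day 42 left out Cited1 ran from -0.55 (without FGF1 replicate 9) to -0.04 (without vehicle replicate 16, the mouse at 19.2 CPM), and Hmx2 from -0.72 to -0.22. The smallest p that an exact permutation test can give with 5 against 5 mice is 0.00794, and the values of the 10 genes were 0.19 or more.

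In all, 9 of the 10 genes lay below 0 on Day 42 (median -0.12, all genes -0.01), and this count depended on single libraries. FGF1 replicate 11 held the lowest level among the 5 FGF1-treated mice for 8 of the 10 genes and the lowest among all 10 mice of the day for 7. Nkx2-1 stood at 13.9, 10.0, 11.9, 10.0 and 5.83 CPM in FGF1 replicates 7 to 11 and at 14.5, 7.13, 12.3, 10.1 and 11.9 CPM in vehicle replicates 12 to 16. Otp stood at 18.8, 15.8, 27.1, 19.9 and 8.05 CPM after FGF1 and at 17.1, 18.5, 25.9, 14.02 and 19.8 CPM after vehicle. Replicate 11 is the low mouse in both series. Without it, 4 of the 10 genes lay below 0 and the median was 0.03, and without vehicle replicate 14 instead, 6 lay below 0. Without FGF1 replicate 7 or 9, or without vehicle replicate 13 or 15, all 10 lay below 0, with medians of -0.16 to -0.29. No member was called under any of the 10 such omissions, with edgeR adjusted p-values of 0.31 or more. Of all genes in the table, 31 were called without FGF1 replicate 7, 1 without FGF1 replicate 8 and 0 under each other omission.

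The same library stood apart in other marker lists. Markers of cortex and hippocampus summed to 650 CPM in it and to 28.1 to 116 CPM in the other 9 mice of the day, and all 5 such genes in the table were at their highest there. Choroid plexus markers summed to 185 CPM against 21.1 to 43.3 CPM (3 of 3 genes at their highest) and striatal markers to 344 CPM against 105 to 202 CPM (5 of 7). The pan-neuronal sum was also the highest, at 10229 CPM against 7605 to 9657 CPM, as was the tanycyte sum, at 251 CPM against 157 to 230 CPM. The sums of oligodendrocyte (8704 against at most 8694 CPM), microglial (315 against at most 309 CPM) and astrocyte markers (5736 against at most 5735 CPM) lay at or just above the top of the other mice. Thalamic markers at 743 CPM and the 39 further hypothalamic factors, at 1185 CPM against 908 to 1259 CPM, lay within the range of the other mice. The 15 peptide and transmitter genes summed to 252 CPM against 251 to 647 CPM, near the bottom of that range. The part of these markers in the low levels of the 10 genes was not tested.

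**Figure D3:**
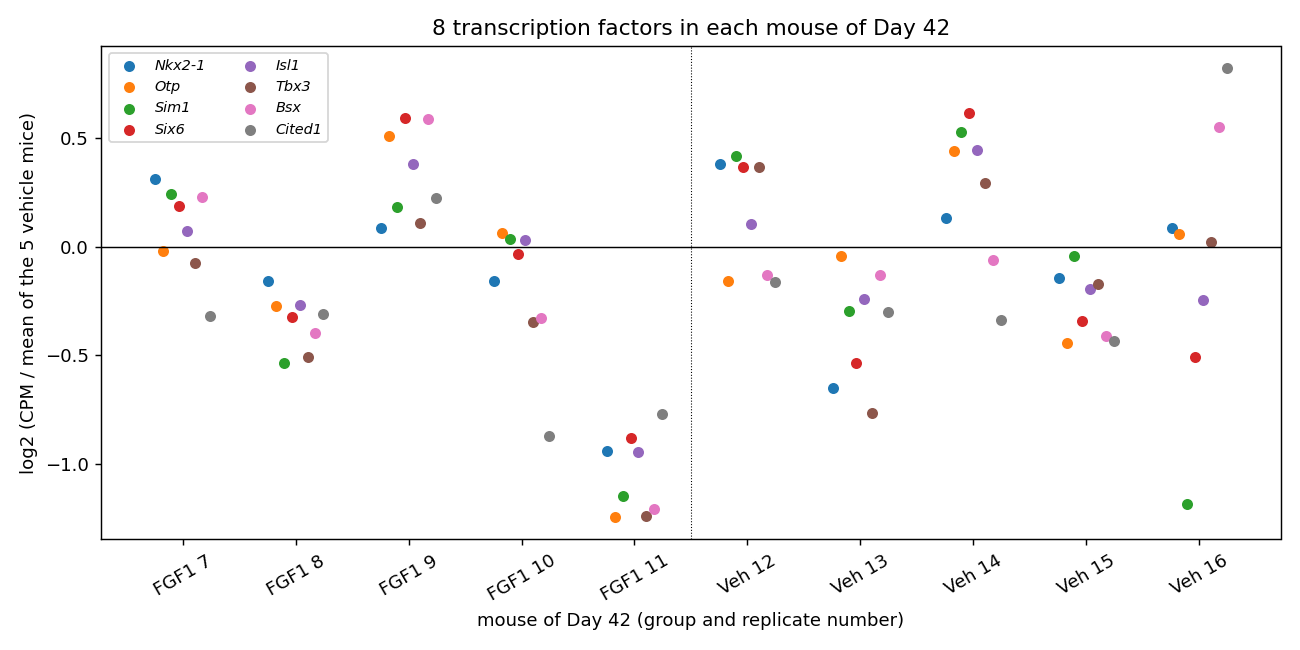
Log2 ratio of the CPM of 8 of the genes to their mean in the vehicle-treated mice (vertical axis) in each of the 10 mice of Day 42 (horizontal axis). Points are genes, and Hmx2 and Hmx3, whose levels lie under 1 CPM, are left out. FGF1 replicate 11 lies below the vehicle mean for each gene, with Nkx2-1 at 5.83 CPM against a vehicle mean of 11.2.

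The FGF1 effects of the 3 days were compared within the same edgeR fit, each as a difference of log2 FCs. Between Day 42 and Day 1, 1 of the 10 genes was called beside 16.4% of all genes. The Cited1 effect was lower on Day 42 by -1.17 ± 0.25 on the log2 scale (SE; 95% interval -1.68 to -0.66; adjusted p = 0.00047), being 0.82 on Day 1 and -0.35 on Day 42. Marker lists of other cells moved in the same difference. The effect was higher on Day 42 for 6 of 8 oligodendrocyte, 3 of 5 ependymal, 3 of 3 choroid plexus, 2 of 7 striatal, 1 of 5 cortical and hippocampal and 2 of 14 pan-neuronal markers (Syt1 0.62 and Snap25 0.54), and lower for 2 of 6 endothelial markers. Microglial (1 higher, 4 lower of 8), astrocyte (4 higher, 2 lower of 10) and tanycyte markers (4 higher, 1 lower of 11) moved in both directions. On Day 42 FGF1 replicate 11 held the highest choroid plexus (185 CPM), striatal (344 CPM) and cortical and hippocampal (650 CPM) sums. The other mice of that day reached at most 43.3, 202 and 116 CPM. Neither the part of that library in the marker values nor the part of the markers in the Cited1 difference was tested. Between Day 5 and Day 1 none was called (15.8% of all genes), and Cited1 at -0.61 ± 0.25 had an adjusted p of 0.0628. Between Day 42 and Day 5 none was called either (0.717% of all genes), and Tbx3 at -0.83 ± 0.24 had an unadjusted p of 0.00118 and an adjusted p of 0.0878. Each of these differences sets libraries of one preparation against those of another. At an unadjusted p under 0.05 the count was 1 (Cited1) between Day 42 and Day 1 beside 36.4% of all genes, 1 (Cited1) between Day 5 and Day 1 beside 37.1%, and 2 (Tbx3 and Cited1) between Day 42 and Day 5 beside 9.98%.

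Among the peptide genes, 4 of 15 had a lower FGF1 effect on Day 42 than on Day 1. These were Pomc (-1.78), Gal (-1.02), Nts, which encodes neurotensin (-0.76), and Cartpt, which encodes the satiety peptide CART (-0.75, all differences of log2 FC). Of the 39 further factors, Meis2 (0.97) and Satb1 (0.65) had a higher and Sox14 (-0.81) a lower effect on Day 42 than on Day 1. Between Day 5 and Day 1 the effect was higher for Lmx1a (1.08) and Nkx2-2 (0.82) and lower for Dlx5 (-0.75), and between Day 42 and Day 5 it was lower for Nkx2-2 (-1.06, edgeR adjusted p = 0.017). For Day 5 minus Day 1, 7 of 8 oligodendrocyte, 3 of 5 ependymal and 2 of 3 choroid plexus markers were higher. Astrocyte (5 higher, 2 lower of 10) and tanycyte markers (4 higher, 2 lower of 11) moved in both directions. So did microglial (1 higher, 2 lower of 8) and striatal markers (1 each way of 7). For Day 42 minus Day 5, 3 of 7 striatal markers were higher and Gfap, Aqp4 and Gpr50 lower. The part of these markers in the values above was not tested.

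The levels of the 10 genes in vehicle-treated mice were far from alike on the 3 days. In non-diabetic vehicle mice the mean level of Otp was 42.5 ± 8.31 CPM on Day 1 (SD, n = 4), 3.18 ± 0.641 CPM on Day 5 (n = 7) and 19.1 ± 4.38 CPM on Day 42 (n = 5). Day 1 thus exceeded Day 5 by 13.3-fold, and the vehicle mice of these days did not overlap, as held in that direction for 7 of the 10 genes and for 28.3% of all genes. The ratio was 7.06 for Nkx2-1 (28.5 against 4.04 CPM), 5.92 for Tbx3 (19.5 against 3.30 CPM) and 3.82 for Cited1 (22.2 against 5.83 CPM). It was lower for Six6 (3.28), Bsx (2.45) and Isl1 (1.58).

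Sim1 ran the other way, at 14.1 ± 3.38 CPM on Day 1, 20.4 ± 1.74 CPM on Day 5 and 15.1 ± 6.13 CPM on Day 42, a Day 5 to Day 1 ratio of 1.44. Hmx2 (0.768 and 1.36 CPM) and Hmx3 (0.680 and 1.19 CPM) were also lower on Day 1 than on Day 5. Genes at least 4 times higher in vehicle mice on Day 1 than on Day 5 made up 1.05% of the table and those at least 4 times lower 3.57%. Among the 10 genes, 3 (Otp, Nkx2-1 and Tbx3) were of the first kind. Time after injection and preparation cannot be told apart in these values.

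**Figure D4:**
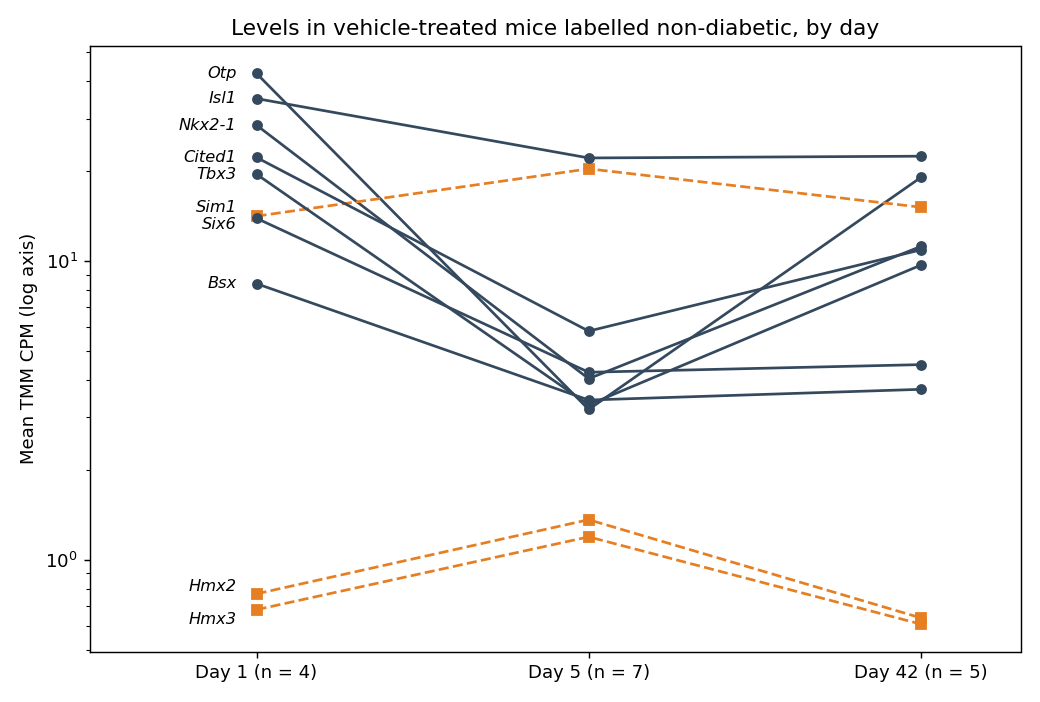
Mean CPM (vertical axis, log scale) of the 10 genes in non-diabetic vehicle mice on Days 1, 5 and 42 (horizontal axis; n = 4, 7 and 5). Solid dark lines are the 7 genes that were higher on Day 1 than on Day 5, led by Otp at 42.5 against 3.18 CPM, and dashed orange lines are Sim1, Hmx2 and Hmx3.

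With each level divided by the length of the gene's exons, the order of the genes also depended on the day. In vehicle mice of Day 1, Otp led at 14.7 ± 2.89 CPM per kb (SD), followed by Cited1 at 12.7 ± 3.19, Nkx2-1 at 10.0 ± 1.45 and Isl1 at 8.84 ± 1.16 CPM per kb, whose spreads overlap between neighbours. Six6, Tbx3 and Bsx lay between 2.84 and 3.47 CPM per kb, Sim1 at 1.64 CPM per kb and Hmx3 and Hmx2 at 0.467 and 0.239 CPM per kb. In non-diabetic vehicle mice of Day 5, Isl1 led at 5.59 ± 0.802 CPM per kb, ahead of Cited1 (3.32 ± 0.252) and Sim1 (2.36 ± 0.202), while Otp stood at 1.10 ± 0.223 CPM per kb. Hmx2 was the lowest in both. In FGF1-treated mice of Day 1 Cited1 led, at 22.1 ± 4.46 CPM per kb.

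Over the 7 groups, the Day 1 levels of Nkx2-1 (21.4 CPM or more), Tbx3 (16.4 CPM or more) and Bsx (6.86 CPM or more) lay above those of every mouse of a later day, which held for 2.12% of all genes. Six6 on Day 1 (6.52 CPM or more) overlapped with Day 42 (up to 6.89 CPM). For Otp the gap lay lower, between the Day 42 groups (8.05 CPM or more) and the Day 5 groups (4.57 CPM or less), as for 15.1% of all genes. For Sim1, Isl1, Cited1, Hmx2 and Hmx3, every group overlapped with its neighbour in the order of means. Cited1 was highest in the FGF1-treated mice of Day 1 (38.8 ± 7.82 CPM, SD, n = 10) and lowest in the non-diabetic vehicle mice of Day 5 (5.83 ± 0.442 CPM, n = 7).

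Spread between mice also varied by day. For the 8 genes above 1 CPM in every group, the median coefficient of variation was 15.2% to 18.995% in the 5 groups of Days 1 and 5, 27.6% in the vehicle group of Day 42 and 33.4% in the FGF1 group of that day. The genes moved together most among the mice of Day 42. As a description, Pearson's r of the deviations of log2(CPM + 0.5) from group means had a median over the 45 gene pairs of 0.03 among the 14 mice of Day 1, 0.11 among the 23 of Day 5 and 0.55 among the 10 of Day 42, or 0.37 without FGF1 replicate 11. Points of a day share a preparation code.

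On Day 42 Nkx2-1 and Tbx3, both factors of the ventral tuberal hypothalamus, gave r = 0.96 (0.93 without replicate 11), Six6 and Isl1 r = 0.95 (0.97) and Otp and Isl1 r = 0.92 (0.79). Over all 47 mice the closest pairs were Sim1 with Isl1 (r = 0.63), Nkx2-1 with Bsx (0.58) and Isl1 with Tbx3 (0.57). These values differed by day. On Days 1, 5 and 42 Sim1 with Isl1 gave 0.33, 0.53 and 0.84. Nkx2-1 with Bsx gave 0.03, 0.66 and 0.68, and Isl1 with Tbx3 0.84, -0.01 and 0.87. Hmx2 and Hmx3, neighbours on chromosome 7 (GRCm38 chr7:131548773-131558014 and chr7:131542867-131544925, both on the plus strand, 3847 bases apart), gave r = 0.35, or 0.06 without the shallowest library, in which both were at 0. The lowest value was that of Sim1 with Cited1 (-0.31).

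Among the 14122 other genes compared (14123 for Hmx3), those with the most similar deviations over the 47 mice are given by r as a description. For Isl1 they were Gpr101 (0.87), Sytl4 (0.84) and N4bp2 (0.83), and for Sim1 they were Usp29 (0.86), Pcdh17 (0.84) and Fndc3a (0.84). For Otp they were Resp18 (0.79), Rtl1 (0.76) and Trh (0.75), the last of which encodes thyrotropin-releasing hormone. For Cited1 they were Col5a3 (0.80), Trmt2a (0.79) and Ucp2 (0.77). Six6 came closest to Slc7a11 (0.75), Mrc1 (0.73) and Efemp1 (0.71), and Nkx2-1 to Fhl1 (0.73), Pam (0.69) and Slc22a21 (0.67). Bsx came closest to Megf6 (0.72), Pnma1 (0.69) and Magel2 (0.67), and Tbx3 to Lpp (0.66), Nek4 (0.65) and Scn9a (0.63). For Hmx2 they were BC055324 (0.69), Nrl (0.66) and Gpc4 (0.65), and for Hmx3 Htra3 (0.66), 2310009B15Rik (0.62) and Pgbd1 (0.62), with values of 0.35 to 0.54 without the shallowest library.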

How the data were processed

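Bulk RNA-seq of hypothalamus from 47 mice in 7 treatment-by-day groups was used. The authors deposited raw read counts per gene, and the submitters' processing notes name STAR, DESeq2 and a build written GRCh38 for these mouse reads. Those notes give no versions, which the paper's reporting summary lists for STAR and DESeq2. The counting program is not given in the sources used here. Counts were analysed with edgeR 4.0.16 (R 4.3.3): TMM scaling, 1 mean per group over all 47 libraries, glmQLFTest and Benjamini-Hochberg adjustment, with calls at adjusted p under 0.05 and an absolute log2 FC above 0.5. The low-count filter removed 0 of 14221 genes. Single genes were also compared by exact permutation tests on log2(CPM + 0.5). Library totals of 1243280 to 47082403 counts limit precision most for Hmx2 and Hmx3. Alternatives used DESeq2 1.42.0, limma 3.58.1, other filters, thresholds and controls, and left out 15 single libraries (FGF1 replicate 17 and the 4 vehicle mice of Day 1, and the 10 mice of Day 42) and a pair of Day 5. Scripts were tested on simulated data. The members and lists were chosen with earlier results of these data known. For each comparison all 10 members are named, and of other lists every called gene where 6 or fewer were called, otherwise the 3 with the largest log2 FC in each direction. Cell-type markers are given mostly by counts and sums. The values of 2 called genes of these lists are not reported here. For likeness, the 3 genes with the highest r among those with a mean of at least 1 CPM are named. Gene positions are from GENCODE (GRCm38) and promoter windows from RefSeq (GRCm38.p6).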

Additional observations from a re-analysis of the deposited data

Results flagged for a closer look

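Of 70 gene-by-group sets of 4 to 10 mice, 6 held 1 mouse far from the rest by Dixon's test, where chance gives about 1 in 20, or 3.5. The Otp level of 54.9 CPM in vehicle replicate 27 of Day 1 lay above the next of 39.5 CPM, and the Tbx3 level of 27.9 CPM in FGF1 replicate 26 of that day above the next of 22.8 CPM. Hmx2 was at 0 CPM in FGF1 replicate 17 of Day 1, the shallowest library, with the next mouse at 0.689 CPM. The Hmx3 level of 0.326 CPM in FGF1 replicate 1 of Day 5 lay below the next of 1.13 CPM. Vehicle replicate 16 of Day 42 held the highest levels of both Cited1 (19.2 CPM, next 9.72 CPM) and Bsx (5.44 CPM, next 3.56 CPM).

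The FGF1 effect on Cited1 differed between days, at -1.17 on the log2 scale for Day 42 minus Day 1 in the edgeR test of the difference itself (adjusted p = 0.00047). Its level was higher in 9 of 10 FGF1-treated mice than in all vehicle mice on Day 1, and in 0 of 5 on Day 42.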

How the results depend on the processing

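Of 111 counts of members called under alternatives, 101 stayed within 1.5 times the reported count and 10 did not. Of 1086 values of single members, 1022 kept direction and side of the threshold, 54 reversed, 9 newly passed and 1 no longer passed. The cause of these shifts was not tested. Part of the agreement was fixed in advance. The low-count filter removed 0 genes, so the alternative without a filter repeated the reported fit. Other fold change thresholds were applied to that same fit, so values under them could not reverse. Cited1 on Day 1 ran from 0.70 to 0.82 over the alternatives that kept all libraries and from 0.71 to 1.00 without the shallowest FGF1 library of Day 1 (replicate 17) or 1 of the 4 vehicle mice of that day, and it was below the threshold, leaving 0 members called, where an absolute log2 FC above 1 was required. The other 9 FGF1 libraries of Day 1 and the libraries of Day 5 were not left out singly, so each range with 1 library left out covers these 5 libraries of Day 1, the 10 of Day 42, or both. The difference for Cited1 between Day 42 and Day 1 ran from -1.37 to -0.86 with 1 library left out. Otp on Day 1 had adjusted p-values of 0.0284 to 0.0576 over the alternatives that kept all libraries, with log2 FCs of -0.45 to -0.36. For Day 5 minus Day 1 the members called rose from 0 to 1 with quantile normalization and limma (Cited1 -0.56, adjusted p = 0.0413) and with both vehicle groups merged (Cited1 -0.81, adjusted p = 0.00616). With each day fitted alone 1 member was called on Day 5 against non-diabetic vehicle (Tbx3), and that fit gives no differences between days. With 1 library left out, the members called were 1 to 2 on Day 1, 0 to 1 for Day 5 minus Day 1 (Cited1 -0.78 without vehicle replicate 27), 1 to 2 for Day 42 minus Day 1 (Hmx3 -1.06 without vehicle replicate 27 of Day 1, Hmx2 -1.08 without FGF1 replicate 7) and 0 to 1 for Day 42 minus Day 5 (Tbx3 -0.97 without FGF1 replicate 9, -0.96 without vehicle replicate 13).

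The 19 results that reversed had reported absolute log2 FCs of at most 0.20, rounded to 2 decimals. Under DESeq2, Isl1 for Day 5 minus Day 1 was 0.030 and Nkx2-1 for Day 42 minus Day 1 was 0.014, and DESeq2 size factors in edgeR gave 0.027 and 0.014. Quantile normalization gave Tbx3 -0.052 on Day 1, Hmx2 -0.073 and Hmx3 -0.079 on Day 5, Isl1 0.059 for Day 5 minus Day 1 and -0.011 for Day 42 minus Day 5, and Nkx2-1 0.014 for Day 42 minus Day 1. At 10 or more counts in every library, which leaves 7 members, Isl1 was 0.019 for Day 5 minus Day 1. Merged vehicle groups gave Otp -0.070 and Hmx3 -0.13 on Day 5. Leaving out the 2 deepest FGF1 libraries of Day 5, an alternative chosen after seeing the data, gave Bsx 0.0030 against diabetic vehicle. With 1 library left out, Day 1 ran from -0.12 to 0.046 for Nkx2-1 and from -0.017 to 0.11 for Tbx3, Day 5 minus Day 1 from -0.061 to 0.071 for Isl1, and Day 42 minus Day 1 from -0.18 to 0.087 for Nkx2-1, from -0.10 to 0.26 for Sim1 and from -0.13 to 0.16 for Isl1. Day 42 ran from -0.24 to 0.033 for Nkx2-1, from -0.28 to 0.10 for Otp, from -0.33 to 0.028 for Sim1, from -0.19 to 0.22 for Six6, from -0.22 to 0.076 for Isl1 and from -0.31 to 0.12 for Bsx. Day 42 minus Day 5 ran from -0.35 to 0.030 for Otp, from -0.40 to 0.0072 for Six6 and from -0.12 to 0.17 for Isl1. No paired analysis was possible because the labels of the groups compared share no replicate number, and the numbers used here for the Day 5 mice only name them in order of listing.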
